A study of Mus musculus with 4 samples.

Results

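The 37 genes described here build the branches of N-glycans and make, move, modify and remove sialic acid, and they were taken as all probe sets of the array whose annotated symbol is 1 of these genes. All 37 were on the array, with 80 of its 45037 probe sets, out of 18193 genes named by 1 symbol. The samples were mammary tumors of female C57BL/6 mice that all carried the polyoma virus middle T oncogene (PyV-mT), a transgene that drives mammary tumors. The sources used here do not name its promoter. One group was null for St6gal1 (St6gal1-/-), the gene of the sialyltransferase that caps N-glycans with alpha2-6-linked sialic acid, and the other was wild-type littermates. Mice were 110 days old, 14 days after tumor onset. Each of the 4 Affymetrix arrays held RNA of a pool of 3 tumors from 3 animals, so the spread between single animals was not measured. There were 2 pools per genotype, and the series' design pairs 1 null with 1 wild-type pool in each of 2 sets. The sources used here name no further difference between the pools. The p-values come from limma, which joins the spread among the pools with a spread borrowed from all tested probe sets. They do not measure the spread between animals.

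An N-glycan arrives in the Golgi as a mannose-rich tree. Mannosidases trim it, the N-acetylglucosaminyltransferases of the Mgat family start its branches, Fut8 adds fucose to the core, and galactosyltransferases lengthen the branches. Sialic acid then caps the galactose. It is made in the cytosol from UDP-GlcNAc, starting with the enzyme encoded by Gne, activated in the nucleus by the Cmas protein, carried into the Golgi by the Slc35a1 transporter, and taken off again by the neuraminidases. Branches and their caps are known to set how galectins and other lectins bind cell surface glycoproteins, and branching by Mgat5 is known for its part in middle T mammary tumors.

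Of these genes, Man1a and Gne were higher in the null tumors on each of their probe sets, and 1 of 4 probe sets of B4galt6 was lower. The enzymes that start the branches did not pass the test. A probe set is a group of short probes for 1 transcript, and its value is a MAS5 signal, a linear intensity. Ratios are null over wild type on the scale log2(signal + 44), averaged over both sets, with the standard error (SE) of limma (n = 2 pools per genotype throughout). A probe set is called when limma's adjusted p lies below 0.05 over all 22519 probe sets bright enough to be tested. Of the 80 member probe sets 61, from 34 genes, were tested, and 5 of these (8.20%) were called, 4 higher and 1 lower. Over all tested probe sets 7.36% were called, 4.09% higher and 3.27% lower, so the members' share lay near the background. With the brightest probe set standing for each gene, 2 of 34 genes were called, against 8.76% of all genes. The median ratio over the 34 genes was -0.00498, and -0.01 over all 11512 genes tested. Both null arrays lay above or below both wild-type arrays for 24 of the 61 (39.3%), against 32.0% of all tested probe sets. The calls rest on a fit with genotype and set as terms, which leaves 1 residual degree of freedom. Most of the spread is borrowed from all tested probe sets along an intensity trend (13.5 prior degrees of freedom). With no set term limma called 0 of the 61 (4 at an unadjusted p under 0.05), and with no trend it called 0 (9 at an unadjusted p under 0.05), as it did over all 22519 probe sets in either fit.

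The promoters of Man1a and Gne are shown, since these are the 2 genes called higher, on each of their probe sets. They are RefSeq sequences of build GRCm38.p6, from 250 bases before to 50 bases after the annotated start, 5′ to 3′ on the minus strand that both genes lie on. Man1a has 1 annotated start, at chr10:54075688-54075987, and Gne has 2, at chr4:44084128-44084427 and chr4:44072668-44072967. Capitals mark the motifs searched on both strands: the GC box (GGGCGG), the CCAAT box (CCAAT) and the TATA box (TATAAA), none of which overlapped another here.
Man1a: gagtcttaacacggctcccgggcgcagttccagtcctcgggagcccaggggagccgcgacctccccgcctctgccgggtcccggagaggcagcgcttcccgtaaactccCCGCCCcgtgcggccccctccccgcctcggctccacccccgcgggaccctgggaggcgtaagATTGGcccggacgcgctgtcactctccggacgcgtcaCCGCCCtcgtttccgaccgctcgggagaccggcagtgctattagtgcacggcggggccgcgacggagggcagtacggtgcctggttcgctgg
Gne, first start: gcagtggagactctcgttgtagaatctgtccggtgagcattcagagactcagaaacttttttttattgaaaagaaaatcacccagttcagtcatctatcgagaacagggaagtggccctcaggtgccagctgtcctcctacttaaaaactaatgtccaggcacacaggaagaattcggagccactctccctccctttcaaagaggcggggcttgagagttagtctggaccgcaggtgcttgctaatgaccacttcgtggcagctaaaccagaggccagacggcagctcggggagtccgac
Gne, second start: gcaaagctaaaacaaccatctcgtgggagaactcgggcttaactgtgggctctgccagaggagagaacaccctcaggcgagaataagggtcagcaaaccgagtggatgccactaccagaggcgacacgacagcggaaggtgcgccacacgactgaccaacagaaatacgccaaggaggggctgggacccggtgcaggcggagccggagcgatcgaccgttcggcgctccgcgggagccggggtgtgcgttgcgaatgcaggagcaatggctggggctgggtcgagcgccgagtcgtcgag

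The Man1a promoter held 2 GC boxes and 1 CCAAT box in a window of 72.7% G and C. Neither Gne window held any of the motifs, at 51.3% and 63.0% G and C, which says only that these letters are not in these windows. Of the 41 promoters of the 29 members with an entry, 26 (63.4%) held a GC box, 13 (31.7%) a CCAAT box and 2 (4.88%) a TATA box. Of all 32851 promoters in the table, 35.7% held a GC box, 37.4% a CCAAT box and 13.6% a TATA box. A match describes the letters and is not a measured binding site. Which start was used in the tumors, and which exons the probe sets read, was not analysed here.

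Signals of the members were compared with an unspecific level of 565, the highest signal of 13 Y-linked probe sets, which have no target in these female animals. Of the 37 genes, 32 had a probe set above this level on all 4 arrays. The other 5 were Mgat3, B4galt2, Cmah, Neu2 and Neu3, which read at or under this level on some arrays, so a loss could go unseen. Of the 80 probe sets, 53 lay above it on all arrays and 13 lay at or below it on all arrays. The signal of 1 probe set cannot be set against that of another, because probes differ in how they bind.

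**Figure D1:**
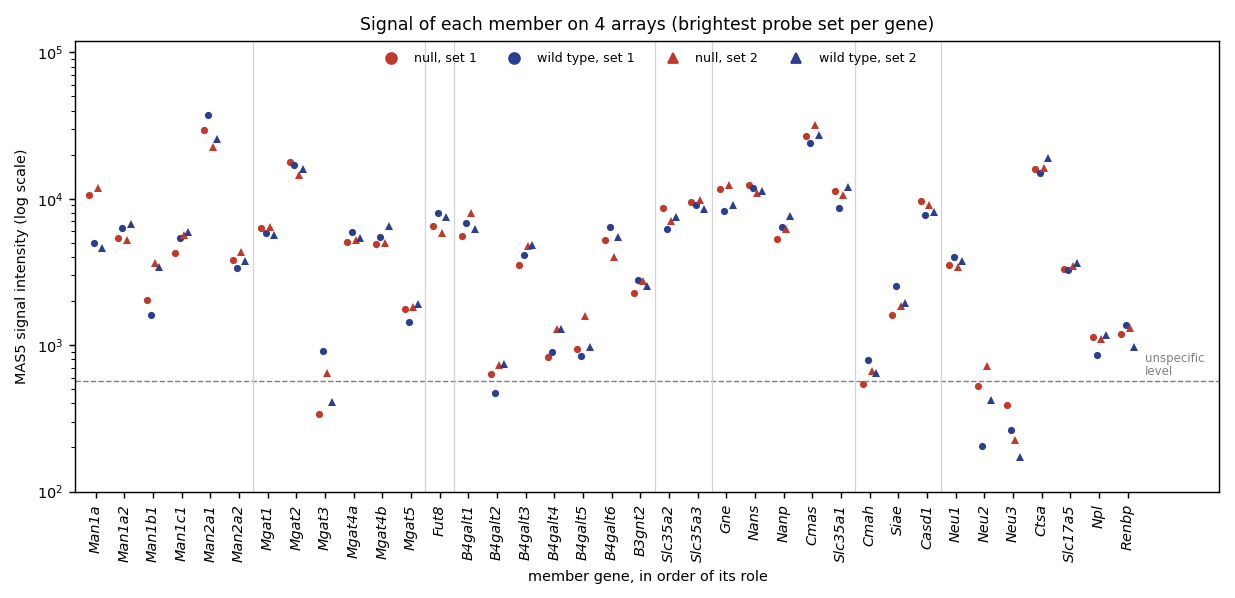
MAS5 signal intensity (log axis) of the brightest probe set of each of the 37 genes, in the order of their roles, on the 4 arrays: red for null, blue for wild type, circles for set 1, triangles for set 2. Both Man1a signals of the null pools, 10618 and 11758, lie above the wild-type signals, 5023 and 4616, while Mgat3, Neu2 and Neu3 have points on both sides of, or wholly under, the dashed unspecific level of 565. Heights compare arrays within a gene, not genes with each other.

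Among the enzymes that trim mannose, Man1a rose and its relatives did not pass. Man1a encodes a Golgi alpha-mannosidase that takes off mannose before the first branch can start. Its probe set 1417111_at read 10618 (null) and 5023 (wild type) in set 1, and 11758 and 4616 in set 2. Its probe set 1417110_at read 7848 and 3298 in set 1, and 4485 and 2157 in set 2. On both probe sets each null array lay above each wild-type array. The log2 ratio was 1.21 ± 0.11, or 2.31-fold (limma adjusted p = 3.5e-06), and 1.14 ± 0.13 (adjusted p = 4.02e-05). Man1a2, a close relative with the same activity, read 5359 against 6340 and 5224 against 6688 on its brightest probe set, with a ratio of -0.30 ± 0.11 (adjusted p = 0.12). Its 2 other tested probe sets lay at 0.09 and 0.07, so the probe sets of this gene pointed both ways.

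The later mannosidases gave small ratios. Man2a1, which removes the last mannoses once the first branch has begun, read 29473 against 37048 in set 1 and 22416 against 25697 in set 2. The null arrays were lower within each set, but the null array of set 1 lay above the wild-type array of set 2. The ratio of -0.26 ± 0.08 missed the threshold (limma adjusted p = 0.0753), and passed it with quantile normalization (adjusted p = 0.0353) and with a stricter filter on dim probe sets (adjusted p = 0.043). Man2a2, with the same activity, lay at 0.20 ± 0.13 on its brighter probe set and at -0.12 ± 0.35 on the dimmer one. Man1b1, a mannosidase of early glycoprotein quality control, lay at 0.22 ± 0.16 and Man1c1, a further Golgi mannosidase, at -0.20 ± 0.12.

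None of the 7 tested probe sets of the branching enzymes was called by limma, and 1 had an unadjusted p under 0.05. Mgat1 starts the first branch and Mgat2 the second. Mgat1 read 6265 against 5808 in set 1 and 6376 against 5653 in set 2, a ratio of 0.14 ± 0.11 with a 95% interval from -0.09 to 0.37. The 2 Mgat2 probe sets lay at -0.04 ± 0.09 and 0.01 ± 0.11, with signals that overlapped between the genotypes. Mgat4a and Mgat4b start a further branch on 1 arm of the glycan. Mgat4b read 4880 against 5452 and 4963 against 6532, and both null arrays lay below both wild-type arrays. Its ratio was -0.28 ± 0.11 (adjusted p = 0.179), and that of Mgat4a was -0.14 ± 0.11.

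Mgat5 starts the branch that is most often lengthened with repeated galactose and GlcNAc units. Its brightest probe set read 1758 against 1442 in set 1 and 1819 against 1911 in set 2, a ratio of 0.10 ± 0.20 with a 95% interval from -0.33 to 0.53. The second tested probe set lay at -0.27 ± 0.21, with an interval from -0.71 to 0.17, so a change of up to about these sizes could not be seen here. Mgat3, which adds the bisecting GlcNAc, was not tested. Its brightest probe set read 341 against 914 in set 1 and 643 against 410 in set 2, higher in wild type in the first set and in null in the second. Fut8, the core fucosyltransferase, read 6530 against 8023 and 5855 against 7461 on its brightest probe set. Both null arrays lay below both wild-type arrays, and the ratio of -0.32 ± 0.10 missed the threshold (limma adjusted p = 0.0722). Its dimmer tested probe set lay at -0.18 ± 0.28.

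Of the enzymes that lengthen branches, B4galt6 had the only called probe set, and its probe sets did not give 1 value. B4galt6 encodes a galactosyltransferase known mainly for making lactosylceramide, the base of many glycolipids. Its called probe set, 1460329_at, read 3239 (null) and 4736 (wild type) in set 1, and 4697 and 6268 in set 2. Each null array lay below each wild-type array, although the null array of set 2 came close to the wild-type array of set 1. It fell by 0.48 on the log2 scale (SE 0.12, limma adjusted p = 0.0231). The brightest probe set read 5233 against 6386 and 3996 against 5516, at -0.37 ± 0.11 (adjusted p = 0.0641). A further one read 3938 against 5510 and 2195 against 2804, at -0.41 ± 0.14 (adjusted p = 0.0872). The dimmest read 1855 against 1915 and 1945 against 2024, at -0.05 ± 0.18. All 4 were lower in the null pool of both sets, and 3 of the 4 share 1 source sequence record in the annotation, so they are not independent.

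B4galt1, the main galactosyltransferase of N-glycans and a subunit of lactose synthase, read 5583 against 6830 in set 1 and 8013 against 6234 in set 2. The direction differed between the sets, with a mean ratio of 0.04 ± 0.13. The tested probe sets of B4galt2 to B4galt5, which encode related galactosyltransferases, lay between -0.13 and 0.42. The value of 0.42 ± 0.26 belonged to B4galt5, which read 936 against 839 in set 1 and 1587 against 969 in set 2. Dim probe sets of B4galt2 (1448941_at) and B4galt5 (1421967_at) were lower in both null pools but read under the unspecific level on all arrays and were not tested, at 89.9 against 151 and 59 against 110 for B4galt2 and at 91.1 against 352 and 34 against 107 for B4galt5. B3gnt2 adds the GlcNAc of repeated units. Its probe set 1420852_a_at read 1836 against 1961 in set 1 and 476 against 1226 in set 2, so the ratio of -0.69 ± 0.28 (adjusted p = 0.176) came from set 2, where the null array lay under the unspecific level. Its brighter probe set lay at -0.10 ± 0.17.

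The transporters that bring sugars into the Golgi did not pass. None of their 10 tested probe sets was called by limma, and 0 had an unadjusted p under 0.05. Slc35a2 carries UDP-galactose. Its brightest probe set read 8681 against 6174 in set 1 and 7006 against 7449 in set 2, and its 6 tested probe sets ranged from -0.48 to 0.42, the widest range of any member. Slc35a3, a carrier of UDP-GlcNAc, read 9508 against 9002 and 9796 against 8485 on its brightest probe set, at 0.14 ± 0.09. Of the 17 genes with at least 2 tested probe sets, 10 had all of them on 1 side of zero.

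**Figure D2:**
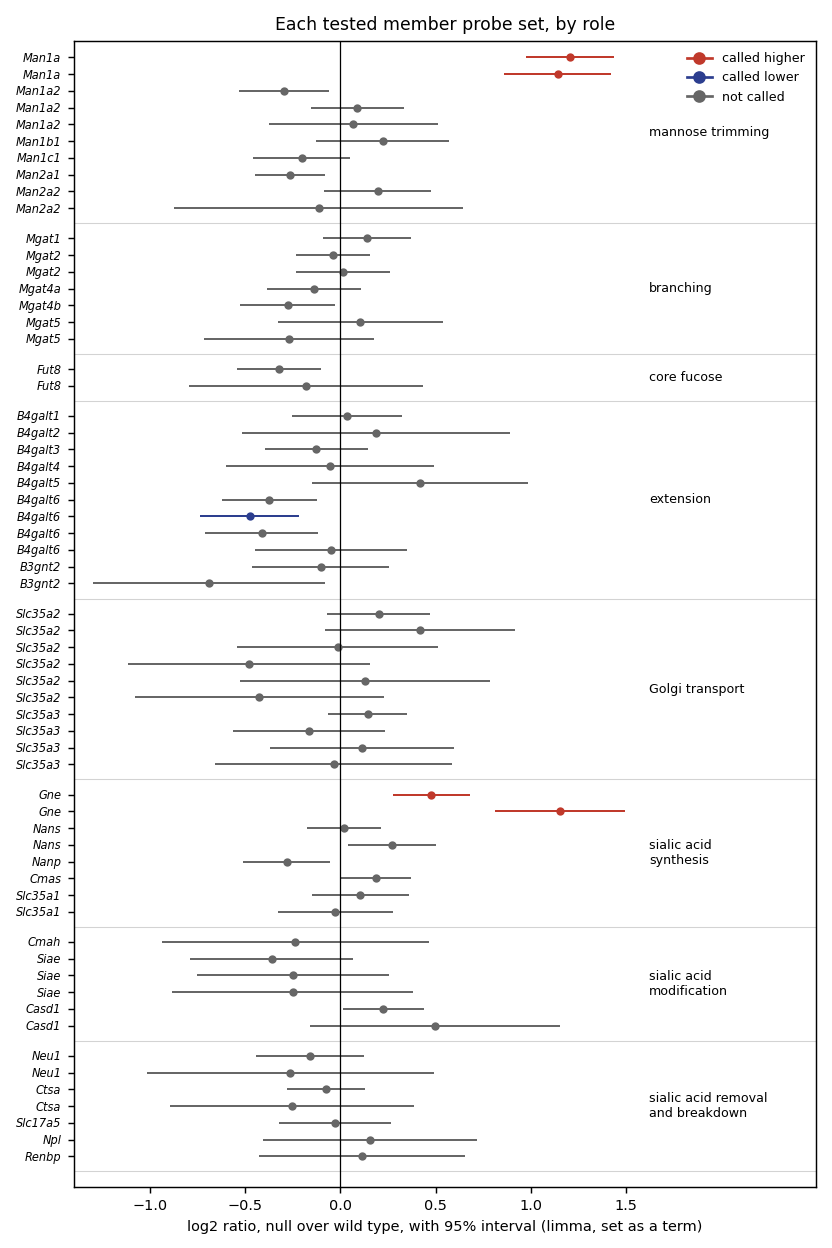
Log2 ratio of null over wild type (point) with its 95% interval (line) for the 61 tested member probe sets, grouped by role. The 2 Man1a and the 2 Gne intervals lie above 0 and are called, 1 B4galt6 probe set is called lower, and the 7 probe sets of the branching enzymes lie between -0.28 and 0.14.

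Sialic acid synthesis had 1 gene that rose, Gne, at its first step. Gne encodes a 2-step enzyme, an epimerase and kinase that turns UDP-GlcNAc into ManNAc phosphate and is inhibited by the end product, CMP-sialic acid. Its brighter probe set, 1448810_at, read 11661 (null) and 8187 (wild type) in set 1, and 12448 and 9115 in set 2. The dimmer one, 1455583_at, read 3288 and 1713 in set 1, and 6099 and 2313 in set 2. Each null array lay above each wild-type array on both. The ratios differed in size, 0.48 ± 0.09 or 1.39-fold (limma adjusted p = 0.00412) with a 95% interval from 0.28 to 0.67, and 1.15 ± 0.16 or 2.22-fold (adjusted p = 2.56e-04) with an interval from 0.82 to 1.49. The difference between the probe sets was not tested.

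The steps after Gne did not pass. Nans joins ManNAc phosphate with phosphoenolpyruvate. It read 12372 against 11803 and 10977 against 11213 on its brighter probe set, at 0.02 ± 0.09, and lay at 0.27 ± 0.11 on the other (adjusted p = 0.154). Nanp removes the phosphate, and read 5306 against 6447 and 6207 against 7579, lower in the null pool of both sets. Its ratio was -0.28 ± 0.10 (adjusted p = 0.127). Cmas, which couples sialic acid to CMP, read 26683 against 24154 and 32020 against 27303, at 0.19 ± 0.08 (adjusted p = 0.213). Slc35a1, the Golgi transporter of CMP-sialic acid, read 11362 against 8700 in set 1 and 10568 against 11935 in set 2, with opposite directions and a mean of 0.10 ± 0.12.

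Genes that modify sialic acid did not pass either: none of their 6 tested probe sets was called by limma, and 1 had an unadjusted p under 0.05. Casd1 adds O-acetyl groups to sialic acid and Siae takes them off. Casd1 read 9657 against 7776 and 9012 against 8174 on its brighter probe set, higher on both null arrays, at 0.23 ± 0.10 (adjusted p = 0.2), and its dimmer probe set lay at 0.50 ± 0.31. Siae read 1604 against 2539 and 1848 against 1948 on its brightest probe set, lower on both null arrays, at -0.36 ± 0.20 (adjusted p = 0.334), and its other 2 tested probe sets each lay at -0.25.

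Cmah encodes the hydroxylase that turns the N-acetyl into the N-glycolyl form of sialic acid. Of its 6 probe sets 1 was bright enough to be tested, at -0.24 ± 0.33, and 5 were not. Of the 5, 1436039_at read 717 (null) and 377 (wild type) in set 1, and 800 and 129 in set 2, above the unspecific level on the null arrays and under it on the wild-type arrays. Probe set 1428043_a_at read 284 against 58 and 363 against 61, all under that level. Fitted without the filter on dim probe sets, a step added after these values were seen, limma's adjusted p was 0.191 and 0.236, so no difference in Cmah was shown.

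Genes of removal and breakdown did not pass. None of the 7 tested probe sets was called by limma, 0 had an unadjusted p under 0.05, and all lay between -0.26 and 0.15. Neu1, the lysosomal neuraminidase, read 3530 against 4020 and 3419 against 3758 on its brightest probe set, at -0.16 ± 0.13. Ctsa, the protective protein that holds Neu1 in its lysosomal complex, read 15868 against 15000 and 16133 against 18906, at -0.07 ± 0.09. Slc17a5, which exports free sialic acid from the lysosome, lay at -0.03 ± 0.14. Npl, the lyase that splits sialic acid, lay at 0.15 ± 0.26, and Renbp, which binds renin and interconverts GlcNAc and ManNAc, at 0.11 ± 0.25. Neu2, the cytosolic neuraminidase, and Neu3, that of the plasma membrane, were too dim to be tested. Neu2 read 524 against 206 and 721 against 422, and Neu3 388 against 263 and 226 against 172.

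The precision differed among the members. Of the 32 genes not called on their brightest tested probe set, 24 had a 95% interval that lay wholly within 1.5-fold either way, and 32 had one within 2-fold. A change of more than 2-fold in the signal of that probe set therefore lay outside the interval of each. For B4galt2 and Cmah, which had no probe set above the unspecific level on all arrays, this does not bound a change in the transcript. The intervals are those of limma, which borrows the spread from all probe sets.

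The sets were also read 1 at a time. At least 1.5-fold changes in either direction were seen for 5 of the 61 probe sets in set 1 (8.20%), against 10.9% of all tested probe sets, and for 8 in set 2 (13.1%), against 13.8%. Of the 5 called probe sets, 3 changed at least 1.5-fold in their called direction in set 1 alone and 3 in set 2 alone. Each set alone holds 1 pool per genotype, so these counts have no test.

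**Figure D3:**
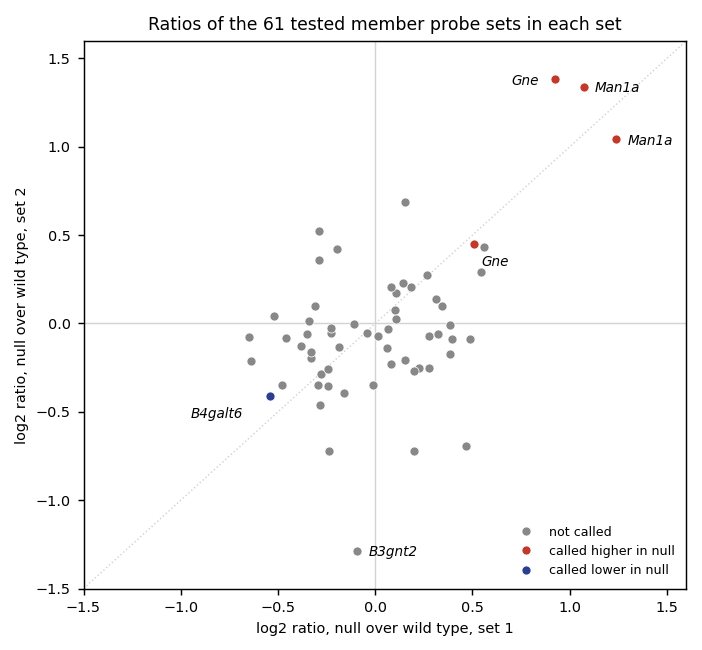
Log2 ratio of null over wild type in set 1 (horizontal) against set 2 (vertical) for the 61 tested member probe sets, with the diagonal of equal ratios dotted. The 4 points of Man1a and Gne lie at the upper right, the called B4galt6 probe set lies at -0.54 and -0.41, and B3gnt2 has 1 probe set at -0.09 in set 1 and -1.29 in set 2.

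Between the sets, 8 of the 61 probe sets (13.1%) were called by limma, 3 higher and 5 lower in set 2, against 23.5% of all tested probe sets, 11.1% higher and 12.4% lower. The higher ones were Man1b1 (0.95 ± 0.16), Gne on 1455583_at (0.65 ± 0.16) and B4galt6 on 1460329_at (0.47 ± 0.12), given as log2 of set 2 over set 1. Those lower were B3gnt2 on 1420852_a_at (-1.26 ± 0.28), B4galt6 on 1450913_at (-0.90 ± 0.14), Man1a on 1417110_at (-0.70 ± 0.13), Mgat2 on 1426350_at (-0.54 ± 0.11) and Man2a1 (-0.46 ± 0.08). B4galt6 thus moved in opposite directions between the sets on different probe sets, and Man1a moved on 1 probe set while the other lay at 0.01 ± 0.11. The 3′ to 5′ signal ratio of Gapdh, a sign of RNA quality, was 0.873 and 0.869 in the null and wild-type pools of set 1 and 2.13 and 1.57 in set 2. That of beta-actin was 1.53 and 1.63 in set 1 and 2.12 and 1.96 in set 2. That of the 18S ribosomal RNA was 0.608 and 0.367 in set 1 and 3.84 and 1.87 in set 2, higher in the null pool of both sets. The part of these ratios in the differences between sets, and in the null over wild-type ratios of Man1a, Gne and B4galt6, was not tested.

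Other genes of the pathway were read from 6 lists, beside the 4.09% called higher and 3.27% called lower over all tested probe sets. Among genes that build the lipid-linked precursor and transfer it to proteins, 4 of 40 tested probe sets were called higher and 0 lower. They were 3 of the 5 tested probe sets of Rpn1, a subunit of the oligosaccharyltransferase (1.37-fold on 1416470_a_at, limma adjusted p = 0.00366), and 1 of 2 of its catalytic subunit Stt3b (1.35-fold, adjusted p = 0.0207). With the brightest probe set standing for each gene, 0 of the 25 genes of this list were called, against 8.76% of all genes. Among genes that remove glucose and mannose in the endoplasmic reticulum, 1 of 11 was called, Edem1, which marks misfolded glycoproteins for disposal, at a log2 ratio of 0.58 (adjusted p = 0.00193), while its other probe set lay at -0.23. Among genes that supply UDP-GlcNAc and UDP-galactose, 2 of 18 were called higher and 1 lower. Gfpt1, the entry step to UDP-GlcNAc, rose 1.32-fold on 1 of 2 tested probe sets (adjusted p = 0.00745), Gnpnat1, a later step, rose 1.41-fold on 1 of 3 probe sets (adjusted p = 0.0264), and Galt, of galactose use, fell by 0.40 on the log2 scale (adjusted p = 0.0332).

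Of the sialyltransferases 1 of 20 tested probe sets was called higher and 0 lower. It was 1460241_a_at of St3gal5, the synthase of the ganglioside GM3, which read 3518 against 1663 and 2189 against 1080, or 2.04-fold (limma adjusted p = 0.00261). The other tested probe set of St3gal5 read 2400 against 2766 and 2879 against 2285, at 0.06 ± 0.17. St6gal1 itself read 2337 against 2330 and 3642 against 2796 on its tested probe set (0.19 ± 0.16, adjusted p = 0.563), and showed no loss on the arrays labelled null. The sources used here do not say whether that probe set lies in the deleted part, so it does not check the labels, on which all directions rest. Of 10 tested probe sets of other branching and capping enzymes and 16 of glycan breakdown, limma called 0 and 0, with 1 and 1 at an unadjusted p under 0.05.

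Markers of other cell types moved with genotype. Of 12 fibroblast markers 12 rose, and their summed signal ran from 419788 to 477566 in the null and from 201490 to 219251 in the wild-type pools, 2.08-fold higher in set 1 and 2.18-fold in set 2. Of 7 adipocyte markers on the array 4 rose, with sums from 54671 to 61475 in the null and from 22536 to 25099 in the wild-type pools, and 4 of the 7 read above the unspecific level on all arrays. The skeletal muscle sums were 1.66-fold and 1.51-fold higher, with 3 of 8 markers rising, which were Ckm, Tnni2 and Tnnc2. The 3 above the unspecific level on all arrays were Acta1, Tnnc2 and Mylpf. The brightest, Acta1, read 4353 against 3007 in set 1 and 3220 against 3543 in set 2. In both sets 6 of the 7 tested were higher. On the wild-type arrays of sets 1 and 2, Ckm read 220 and 478, and Tnni2 881 and 236. Myh4 read 414 and 420 there, and Tnnt3 294 and 592. Their higher null signals brought these genes past the filter on dim probe sets, so their rise is not independent of it. Endothelial and pericyte sums were 21346 and 22447 in the null and 13333 and 13933 in the wild-type pools, with 2 of 8 markers rising. The largest part of these sums was Rgs5, at 11706 against 6588 and 13621 against 7081. Of the 7 tested markers of this list 5 were higher in both sets, while Cdh5 and Cspg4 had mean ratios of -0.10 and -0.31. Macrophage sums were 1.16-fold and 1.15-fold higher, with 3 of 9 markers rising. Man1a and Gne went the same way as the sums of these lists, and the part of each list in their ratios was not tested. In pieces of tumor, more cells of a type and more RNA per cell cannot be told apart.

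Other lists went the other way or changed little. The sum of neutrophil and mast cell markers was 0.337 and 0.363 times the wild-type sum in sets 1 and 2, with 1 of 6 markers higher, 1 lower and 2 above the unspecific level on all arrays. This sum is mostly S100a8, a neutrophil gene, which read 9956 against 35879 and 8818 against 32530. The neutrophil genes S100a9 and Mpo read under the unspecific level on all arrays and went in opposite directions in the 2 sets. The fall therefore rests on S100a8 alone. The mast cell gene Cma1 was called higher, at 1018 against 574 and 1704 against 588, so the list did not move as 1. Basal epithelial sums were 0.768 and 0.813 times the wild-type sums, with 4 of 8 markers lower and 0 higher. B4galt6 went the same way as the basal markers called, as S100a8 and as the plasma cell marker Jchain. Jchain read 869 against 1487 in set 1 and 1190 against 2236 in set 2, and was called lower (limma adjusted p = 0.0382). The part of these markers in the B4galt6 ratio was not tested. Luminal epithelial sums were 0.982 and 1.17 times the wild-type sums, with 1 of 8 markers higher on its brightest probe set. Of all 12 tested luminal probe sets 2 were called higher and 1 lower. The lower one was a dimmer probe set of Elf5, at 3159 against 10608 and 1940 against 8989. Its log2 ratio was -1.96 (limma adjusted p = 2.1e-07), while the brightest probe set of Elf5 lay at -0.12 and was not called. The sums of T and NK cell markers were 1.19 and 1.57 times, and those of B and plasma cell markers 0.902 and 0.695 times, the wild-type sums. Each of these lists had 1 marker above the unspecific level on all arrays, with 0 called in the first and 1 lower in the second. Of the luminal markers, which check for mammary epithelium but not for tumor, 7 of 8 read above the unspecific level on all arrays. Krt8 read between 101213 and 150715 on its brightest probe set. The 2 milk genes of the list differed. Csn2 read at most 231 on its own brightest probe set, and Csn3 read from 213148 to 303036 on its brightest.

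**Figure D4:**
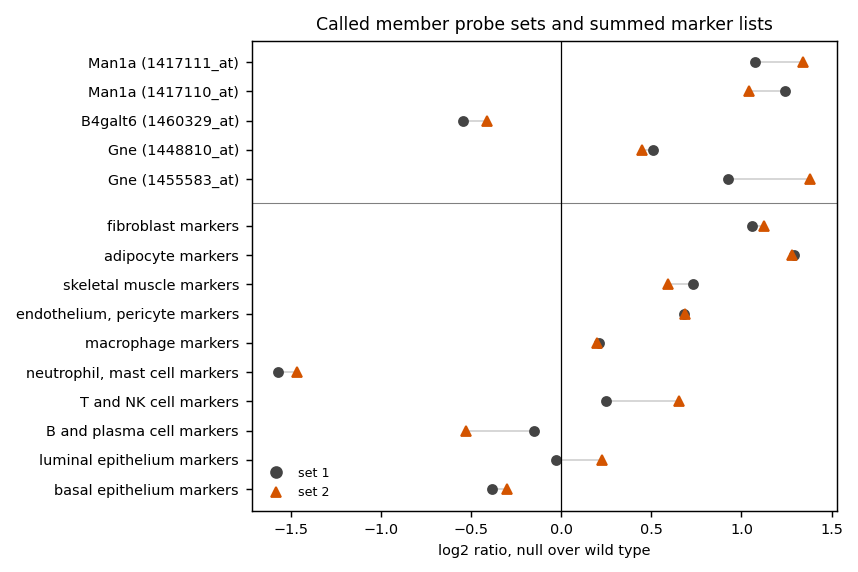
Log2 ratio of null over wild type in set 1 (grey circles) and set 2 (orange triangles) for the 5 called member probe sets and for the summed signal of 10 marker lists. The Man1a and Gne points lie on the same side as the fibroblast, adipocyte, muscle and endothelial sums. B4galt6 lies on the side of the basal epithelial sum, the B and plasma cell sum, and the neutrophil and mast cell sum, which is mostly S100a8.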

How the data were processed

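The authors deposited linear signal intensities per probe set, made with MAS5 per the submitters' processing notes (version not given in the sources used here). Each array had the same mean of 2500.01 after trimming its extremes, so they were taken as the authors gave them. The detection calls were left out. Of the probe sets, 64 controls were left out. The annotation gave 1 symbol for 34945 probe sets, several for 932 and none for 9160, and only those with 1 symbol were named. Values were taken as log2(intensity + 44), with 44 as the 10th percentile over the arrays. Probe sets with a mean log2 value at or above the median were tested, with limma 3.58.1 in R 4.3.3 (lmFit, eBayes with intensity trend), genotype and set as terms, and p-values adjusted by Benjamini-Hochberg. The pairing comes from the series' design text. Within a set, departures from the genotype means had a correlation of 0.612, which 2 pools per genotype force to be equal in both sets. With 4 arrays an exact permutation test that ignores the pairing cannot give a two-sided p below 0.333. Swaps within sets only are fewer, so their lower limit is higher. The number of arrays limits the precision.

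The brightest probe set stood for a gene. By the naming rule, values in every array were given for members with a called probe set, with a log2 ratio of at least 0.5 in size and of 1 sign in both sets, or with probe sets of at least 0.5 in opposite directions, and for further members chosen after their values were seen. Of the pathway lists, genes called were named, up to 4 a list. Members and lists were chosen with earlier results of these data known. Alternatives were other normalizations, filters and pseudocounts, no set term, no trend, each array left out, and each set alone.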

Additional observations from a re-analysis of the deposited data

How the results depend on the processing

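With quantile or cyclic loess normalization, no filter, a filter at the 75th percentile, or a pseudocount of 1 or 200, between 5 and 6 member probe sets were called, and the same 5 were among them each time. With no replicate block (no set term), and with no intensity trend, 0 were called. With each array left out in turn and no set term, since the paired fit then has no residual degree of freedom, the count was 0 each time (lowest 0, highest 0), with 3 to 4 at an unadjusted p under 0.05. All 5 calls kept their direction in these fits. Between the sets, 8 member probe sets were called, from 7 to 9 under the other normalizations, filters and pseudocounts, and 0 without the intensity trend. The median ratio over member genes ran from -0.04 in set 2 to 0.04 in set 1. Of the 16 tested probe sets followed singly, 3 that were not called changed sign in a fit with 1 array left out: Man2a1 to 3.64e-04 without wild-type replicate 1, B4galt6 on 1450913_at to 0.00163 without null replicate 2 and to 0.0683 without wild-type replicate 1, and B3gnt2 on 1420852_a_at to 0.24 without null replicate 2. With 2 pools per genotype, the number of arrays limits every value.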
